A study of Mus musculus with 8 samples.

Results

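The NRF2 antioxidant response was followed in the liver through 10 genes, chosen by name: Nfe2l2, Keap1, Nqo1, Gclc, Gclm, Txnrd1, Srxn1, Slc7a11, G6pdx and Osgin1. All 10 were among the 30266 genes of the deposited table, and all 10 had enough reads to be among the 18315 genes tested. The livers came from male Mdr2-/- mice of 8 weeks. Mdr2 is the older name of Abcb4, which carries phospholipid into bile, and loss of it leads to cholestatic liver injury. One group received vehicle, labelled PBS (4 libraries), and the other recombinant FGF21, labelled rFGF21, at 1.0 mg/kg (4 libraries), and tissue was taken after 4 h. Both groups carry the Mdr2-/- genotype, so the comparison is of the hormone within cholestatic mice, and wild-type liver was not analysed here. No strain is given, the labels do not say outright that each library is from its own mouse, and p-values therefore measure the spread between these libraries, which may be technical.

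NRF2, the product of Nfe2l2, is a transcription factor that is kept low by KEAP1, an adaptor that hands it to a ubiquitin ligase. Oxidants and electrophiles modify KEAP1, NRF2 then accumulates, pairs with small MAF proteins and binds antioxidant response elements in genes for glutathione synthesis, thioredoxin reduction, NADPH supply and quinone reduction. In cholestasis, retained bile acids expose hepatocytes to oxidative stress, and this system is one of their defences. NRF2 is controlled mainly as a protein, and its protein level was not measured here.

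None of the 10 members was called changed after rFGF21 by edgeR's quasi-likelihood test, at a Benjamini-Hochberg adjusted p under 0.05 over all genes tested. A missing call does not show that a gene was unchanged. Over all genes tested 2.82% were called (210 higher and 306 lower; 257 higher and 178 lower when libraries were scaled by their totals alone). At an unadjusted p under 0.05 there were 3 members, Osgin1 and G6pdx on the higher side and Gclm on the lower side, where 18.8% of all genes tested reached that level. DESeq2 called 1 member, Osgin1, where it called 9.66% of the 15805 genes to which it gave an adjusted p. With limma on voom weights 0 members were called, where 2.66% of all genes tested were. The levels of the 2 groups did not overlap in 2 members, G6pdx (higher after rFGF21) and Gclm (lower), where 12.3% of all genes tested were apart in this way. The median log2 fold change of the 10 members was 0.11, beside 0.0034 for all genes tested. With library totals alone these medians were 0.20 and 0.087, so values from that fit are to be read beside 0.087. The members' median rested on single libraries, being -0.05 without PBS library 5, 0.06 without PBS library 1 and 0.23 without PBS library 4.

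Promoter sequence is shown for 3 members that differed in their values: Osgin1, with the largest difference between the groups, Gclm, lower without overlap, and Srxn1, a member whose groups overlapped. RefSeq promoter windows were found for 9 of the 10 members (11 windows, build GRCm38.p6). Each stretch below runs 5′ to 3′ on the strand of the gene, from 250 to 31 bases before the annotated start, and capitals mark matches to TGACNNNGC, the core of the antioxidant response element, or to TGANTCA, the core of the AP-1 site, searched on both strands. The 2 motifs can overlap, since a site can match both. The Osgin1 window is chr8:119436897-119437116 on the plus strand, which lies within the span that the deposited table gives for the gene. The Gclm window is chr3:122245307-122245526, plus strand. The Srxn1 window is chr2:152105274-152105493, plus strand.
Osgin1: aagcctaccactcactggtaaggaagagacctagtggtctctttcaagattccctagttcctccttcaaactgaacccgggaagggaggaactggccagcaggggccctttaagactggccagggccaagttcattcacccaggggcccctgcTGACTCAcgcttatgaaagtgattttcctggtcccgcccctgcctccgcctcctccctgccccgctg
Gclm: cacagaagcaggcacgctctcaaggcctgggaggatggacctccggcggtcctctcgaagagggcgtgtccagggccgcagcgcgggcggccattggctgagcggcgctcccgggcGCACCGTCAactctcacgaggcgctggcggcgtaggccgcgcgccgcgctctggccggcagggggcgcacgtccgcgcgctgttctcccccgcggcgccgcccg
Srxn1: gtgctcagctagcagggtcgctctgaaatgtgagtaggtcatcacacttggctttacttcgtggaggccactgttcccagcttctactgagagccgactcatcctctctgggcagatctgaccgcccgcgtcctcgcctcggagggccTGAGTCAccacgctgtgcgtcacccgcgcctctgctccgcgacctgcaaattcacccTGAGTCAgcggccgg

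The stretch of Gclm holds 1 match to TGACNNNGC, on the minus strand, between 134 and 126 bases before the start, and reads TGACGGTGC there. Osgin1 holds 1 match to TGANTCA, 97 to 91 bases before the start, and Srxn1 holds 2, at 102 to 96 and at 45 to 39 bases before it. TGACNNNGC asks for C after TGA, so letters such as TGAGTCAGC were not counted under it. The Srxn1 match nearer the start reads TGAGTCAGC, and so does the Osgin1 match on its minus strand. Among the other windows TGACNNNGC was matched in those of Nfe2l2 and G6pdx and in 1 of 3 of Txnrd1, and neither motif was matched in those of Keap1, Nqo1 or Slc7a11. Of 32851 windows of the same 220 bases, 8.70% held TGACNNNGC and 6.12% held TGANTCA. A match is a description of the letters and not a measured site, and these windows leave out distal elements.

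The libraries held 62756328 to 73313449 reads, so sampling noise is small for every member but Slc7a11. Levels are CPM, read counts scaled to library size with TMM factors, and a library is named by its group and the number in its column. Albumin, the main hepatocyte product, stood between 42573 and 63437 CPM in all 8 libraries. The labels' extraction text names retina, yet photoreceptor markers were at or near 0. Of 5 such markers 4 were in the table, 2 of them (Crx and Rcvrn) had 0 reads in all libraries (a limit of 3 reads in each), and the most reads of any of the 4 in a library was 20. Their summed level reached at most 0.274 CPM. Reads over Abcb4 ranged from 337 to 441 CPM in the 8 libraries; which part of the gene is disrupted was not stated in the labels, so this does not check the genotype. One library, PBS 4, had 7.96% of its reads on mitochondrial genes, against 3.27% to 4.55% in the other 7. In whole liver, fewer cells of a type and less RNA per cell cannot be told apart.

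**Figure D1:**
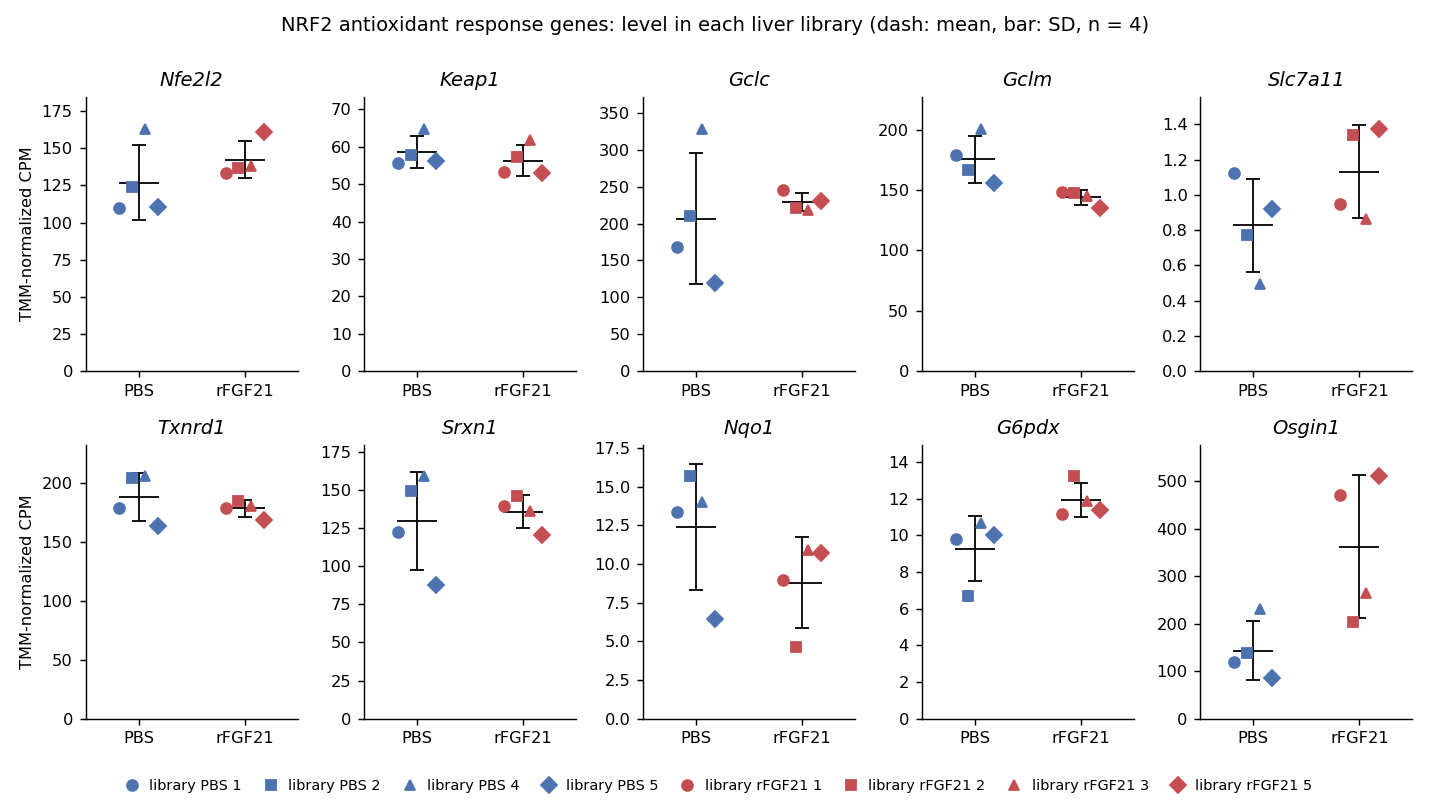
Level of each of the 10 members (vertical axis, TMM-normalized CPM, from 0) in the 4 PBS and 4 rFGF21 libraries, with a symbol for each library, the mean as a dash and the SD as a bar. The groups are apart only for Gclm and G6pdx, and Osgin1 ranges from 85.5 to 231 CPM in PBS and from 204 to 511 CPM in rFGF21 libraries.

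Neither the transcription factor gene nor that of its inhibitor was called changed. Nfe2l2 (ENSMUSG00000015839, GRCm38 chromosome 2, 75675513 to 75704641, minus strand) was read at 109.5, 124, 163 and 110.3 CPM in PBS libraries 1, 2, 4 and 5. In rFGF21 libraries 1, 2, 3 and 5 it was read at 134, 137, 138 and 161 CPM. PBS library 4 was above all rFGF21 libraries, and the other 3 PBS libraries were below them. The means were 127 ± 25.2 and 142 ± 12.6 CPM (SD, n = 4 each), a log2 fold change of 0.17 ± 0.13 (SE, 95% interval -0.13 to 0.47, edgeR adjusted p = 0.55). With a library left out the log2 fold change of Nfe2l2 ranged from 0.11 to 0.32. Keap1 (ENSMUSG00000003308, chromosome 9, 21229730 to 21239361, minus strand) was the steadiest member in PBS, between 55.7 and 64.8 CPM, and lay between 52.9 and 61.9 CPM after rFGF21. Its log2 fold change of -0.06 ± 0.09 had a 95% interval of -0.25 to 0.14 (edgeR adjusted p = 0.780), and it turned positive with library totals alone (0.027). The upper bounds of the 95% intervals correspond to 1.38-fold higher for Nfe2l2 and 1.10-fold higher for Keap1.

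The ratio of Nfe2l2 to Keap1 within a library needs no scaling between libraries. On the log2 scale of read counts it was 0.98, 1.10, 1.33 and 0.98 in PBS libraries 1, 2, 4 and 5 and 1.33, 1.26, 1.16 and 1.61 in rFGF21 libraries 1, 2, 3 and 5. For this ratio PBS library 4 lay within the range of the rFGF21 libraries. The difference was 0.24 (exact permutation test over libraries, two-sided, p = 0.143, adjusted p = 0.143 over the 2 ratios tested), where the smallest p the design allows is 0.0286.

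Glutathione is made by glutamate-cysteine ligase, with a catalytic subunit from Gclc and a modifier subunit from Gclm, and takes its cysteine in part through the cystine importer encoded by Slc7a11. The subunit genes differed in their pattern. Gclc (ENSMUSG00000032350, chromosome 9, 77754535 to 77794485, plus strand) was read at 168, 210.0, 329 and 120.0 CPM in PBS libraries 1, 2, 4 and 5 and at 246, 222, 219 and 230.1 CPM in rFGF21 libraries 1, 2, 3 and 5. The PBS libraries spanned 2.74-fold and enclosed all 4 rFGF21 libraries, which spanned 1.12-fold. Their coefficients of variation were 43.1% and 5.26%, beside medians of 14.8% and 11.1% for all tested genes of at least 1 CPM. The log2 fold change of Gclc was 0.15 ± 0.24 (95% interval -0.39 to 0.69, edgeR adjusted p = 0.80), and it was -0.033 without PBS library 5.

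Gclm (ENSMUSG00000028124, chromosome 3, 122245557 to 122270732, plus strand) was read at 179, 166, 201 and 155 CPM in PBS libraries 1, 2, 4 and 5. After rFGF21 it was read at 149, 147, 145 and 135 CPM in libraries 1, 2, 3 and 5, all below the lowest PBS library. The means were 175 ± 19.4 and 144 ± 6.23 CPM (SD, n = 4 each). The log2 fold change was -0.28 ± 0.10 (95% interval -0.50 to -0.07, unadjusted p = 0.0154), and the gene was not called after adjustment (edgeR adjusted p = 0.152, 0.0588 with DESeq2). Its sign was negative in all 17 alternative fits. The predicted gene Gm17494 lies across Gclm on the other strand and was read at 24.7 ± 14.1 and 18.2 ± 9.73 CPM (SD, n = 4 each); the strand setting of the counting was not stated, so reads of the pair may be shared.

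Within a library, the log2 ratio of Gclm to Gclc was 0.08, -0.34, -0.71 and 0.37 in PBS libraries 1, 2, 4 and 5. It was -0.73, -0.59, -0.59 and -0.77 in rFGF21 libraries 1, 2, 3 and 5. The rFGF21 libraries lay close together and PBS library 4 fell among them. The difference was -0.52 (exact permutation test, two-sided, p = 0.0857, adjusted p = 0.143 over the 2 ratios). The SD was 0.48 in PBS and 0.09 after rFGF21.

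**Figure D2:**
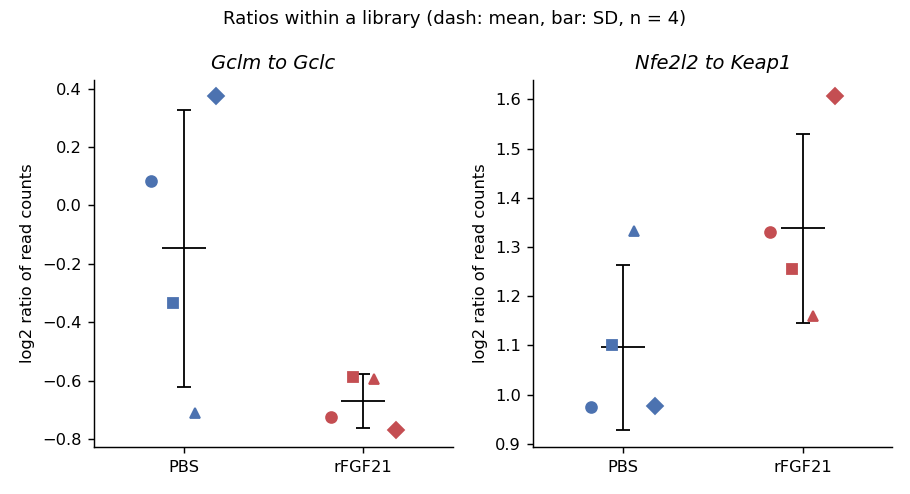
Log2 ratio of read counts of Gclm to Gclc (left) and of Nfe2l2 to Keap1 (right) in each of the 4 PBS and 4 rFGF21 libraries, with the mean as a dash and the SD as a bar. In both panels PBS library 4 (triangle) lies within the range of the rFGF21 libraries, and the groups overlap.

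Slc7a11 (ENSMUSG00000027737, chromosome 3, 49892526 to 50443614, minus strand) was the lowest member, with 29 to 104 reads in a library. Its levels were 1.12, 0.770, 0.496 and 0.917 CPM in PBS libraries 1, 2, 4 and 5 and 0.946, 1.34, 0.863 and 1.37 CPM in rFGF21 libraries 1, 2, 3 and 5. The groups overlapped, and the log2 fold change of 0.45 ± 0.32 had a wide 95% interval of -0.26 to 1.16 (edgeR adjusted p = 0.495). The upper end of that interval corresponds to 2.23-fold higher.

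Txnrd1 encodes the cytosolic thioredoxin reductase, a selenoenzyme, and Srxn1 encodes sulfiredoxin, which restores over-oxidised peroxiredoxins. Txnrd1 (ENSMUSG00000020250, chromosome 10, 82833951 to 82897712, plus strand) was read between 163 and 206 CPM in PBS and between 169 and 185 CPM after rFGF21, so that all rFGF21 libraries fell within the PBS range. The log2 fold change was -0.08 ± 0.10 (95% interval -0.29 to 0.14, edgeR adjusted p = 0.737), and its sign turned with library totals alone (0.0059). Srxn1 (ENSMUSG00000032802, chromosome 2, 152105516 to 152109322, plus strand) was read at 122, 149, 159 and 87.6 CPM in PBS libraries 1, 2, 4 and 5 and at 139.6, 146, 137 and 121 CPM in rFGF21 libraries 1, 2, 3 and 5. The rFGF21 libraries lay within the PBS range here too. Its log2 fold change was 0.07 ± 0.16 (95% interval -0.30 to 0.43, edgeR adjusted p = 0.873), and it was -0.073 without PBS library 5.

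Nqo1 encodes a quinone reductase that is often read as the standard NRF2 target. It (ENSMUSG00000003849, chromosome 8, 107388225 to 107403206, minus strand) was read at 13.3, 15.7, 14.0 and 6.46 CPM in PBS libraries 1, 2, 4 and 5 and at 8.94, 4.61, 10.9 and 10.7 CPM in rFGF21 libraries 1, 2, 3 and 5. PBS library 5 lay below all rFGF21 libraries but number 2, and the other 3 PBS libraries lay above all of them. The log2 fold change was -0.49 ± 0.30 (95% interval -1.16 to 0.18, edgeR adjusted p = 0.421). It ranged from -0.70 without PBS library 5 to -0.27 without rFGF21 library 2.

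G6pdx encodes glucose-6-phosphate dehydrogenase, the entry enzyme of the pentose phosphate pathway and a source of NADPH. It (ENSMUSG00000031400, chromosome X, 74409483 to 74429194, minus strand) was read at 9.78, 6.68, 10.7 and 9.998 CPM in PBS libraries 1, 2, 4 and 5. After rFGF21 it was read at 11.2, 13.2, 11.9 and 11.4 CPM in libraries 1, 2, 3 and 5, each above the highest PBS library. The log2 fold change was 0.36 ± 0.15 (95% interval 0.03 to 0.69, unadjusted p = 0.0365, edgeR adjusted p = 0.228), and its sign was positive in all 17 alternative fits. Ikbkg, a subunit of the kinase that activates NF-kappaB, spans G6pdx on the other strand and stood at 67.3 ± 2.91 and 66.1 ± 7.27 CPM (SD, n = 4 each), so the small count of G6pdx is uncertain where reads were not told apart by strand.

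Osgin1, a growth inhibitor gene that responds to oxidative stress, differed most of the members. It (ENSMUSG00000074063, chromosome 8, 119434124 to 119446256, plus strand) was read at 119, 137, 231 and 85.5 CPM in PBS libraries 1, 2, 4 and 5. In rFGF21 libraries 1, 2, 3 and 5 it was read at 471, 204, 265 and 511 CPM. The groups overlapped by 1 pair, PBS library 4 standing above rFGF21 library 2. The means were 143 ± 62.5 and 363 ± 151 CPM (SD, n = 4 each), a log2 fold change of 1.34 ± 0.34 (2.53-fold, 95% interval 1.5 to 4.28). Over all genes the adjusted p of edgeR's quasi-likelihood test was 0.0666, which misses the threshold (unadjusted p = 0.00258).

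The call of Osgin1 turned on single libraries and on the tool. It passed without PBS library 4 (edgeR adjusted p = 0.0325, log2 fold change 1.67), where 1.06% of genes were called higher. It also passed without rFGF21 library 2 (edgeR adjusted p = 0.0498, log2 fold change 1.54), where 0.642% were, and with DESeq2 (adjusted p = 0.0285). In the other 6 fits that left out a library the adjusted p lay between 0.0845 and 0.175. Its 2 highest libraries, rFGF21 1 and 5, also had the highest summed levels of the 6 cholangiocyte markers among the 8 libraries (324 and 368 CPM, the other 2 rFGF21 libraries at 237 and 263 CPM and PBS libraries at 171 to 265 CPM). The summed levels of the 6 stellate cell and myofibroblast markers were also highest in these libraries (323 and 330 CPM, against 185 to 261 CPM in the other 6). They had the lowest summed levels of the 6 Kupffer cell and macrophage markers (419 and 352 CPM, against 521 to 766 CPM in the other 6). All 6 cholangiocyte markers (Krt7, Krt19, Epcam, Sox9, Spp1 and Cftr) had positive log2 fold changes. Of these, 5 had an unadjusted p under 0.05, where 8.92% of all genes tested were higher at that p, and 0 were called. No marker of the 3 lists was at 0 reads. Within PBS the order was the other way for cholangiocyte and stellate cell markers. PBS library 4 had the highest Osgin1 level of that group (231 CPM). Its summed cholangiocyte (171 CPM) and stellate cell markers (185 CPM) were the lowest of the 8 libraries. The part of these markers in the Osgin1 difference was not tested.

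**Figure D3:**
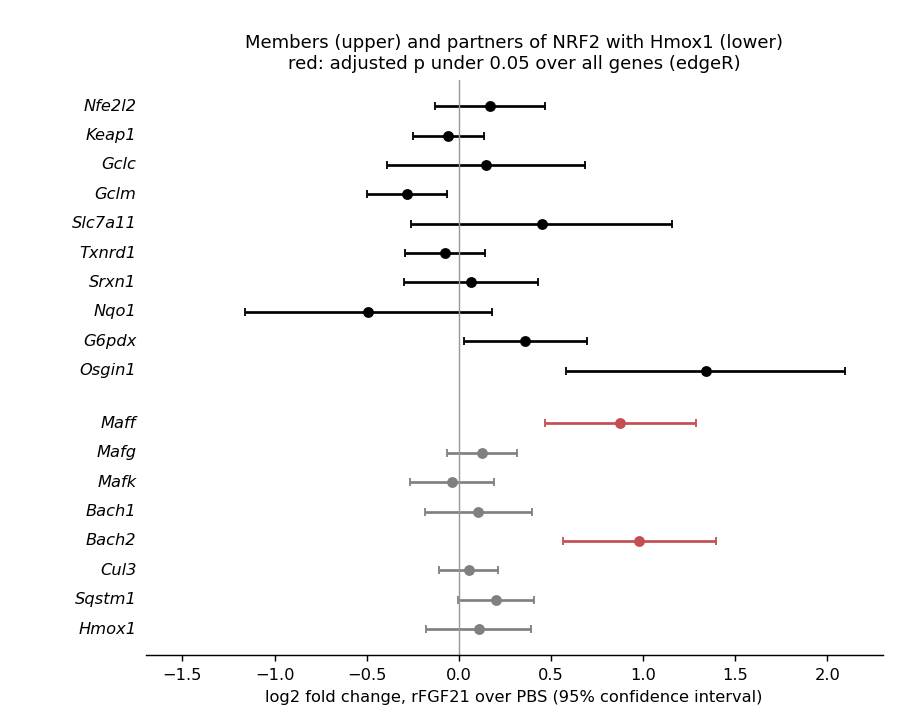
Log2 fold change of rFGF21 over PBS (horizontal axis) with its 95% confidence interval for the 10 members (upper block) and for small MAF, BACH and other partners of NRF2 with Hmox1 (lower block). The intervals of Gclm, G6pdx and Osgin1 leave out 0 without adjustment, and Bach2 and Maff are the 2 genes shown that passed after adjustment.

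Several members shared their highest and lowest PBS libraries. Of the 4 PBS libraries, PBS 4 was the highest for 8 of 10 members (all but Nqo1 and Slc7a11), where it was the highest for 31.0% of all genes tested. PBS 5 was the lowest for 6 of 10, namely Nqo1, Gclc, Gclm, Txnrd1, Srxn1 and Osgin1, where it was the lowest for 23.2% of genes. Beside this, PBS 4 had the lowest summed cholangiocyte markers (171 CPM) and the highest summed hepatocyte markers of the 8 libraries (80931 CPM, the others at 58394 to 73971 CPM), besides its mitochondrial share. The part of these differences in the pattern was not tested. After rFGF21 no library stood at one end for more than 4 of the 10 members.

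**Figure D4:**
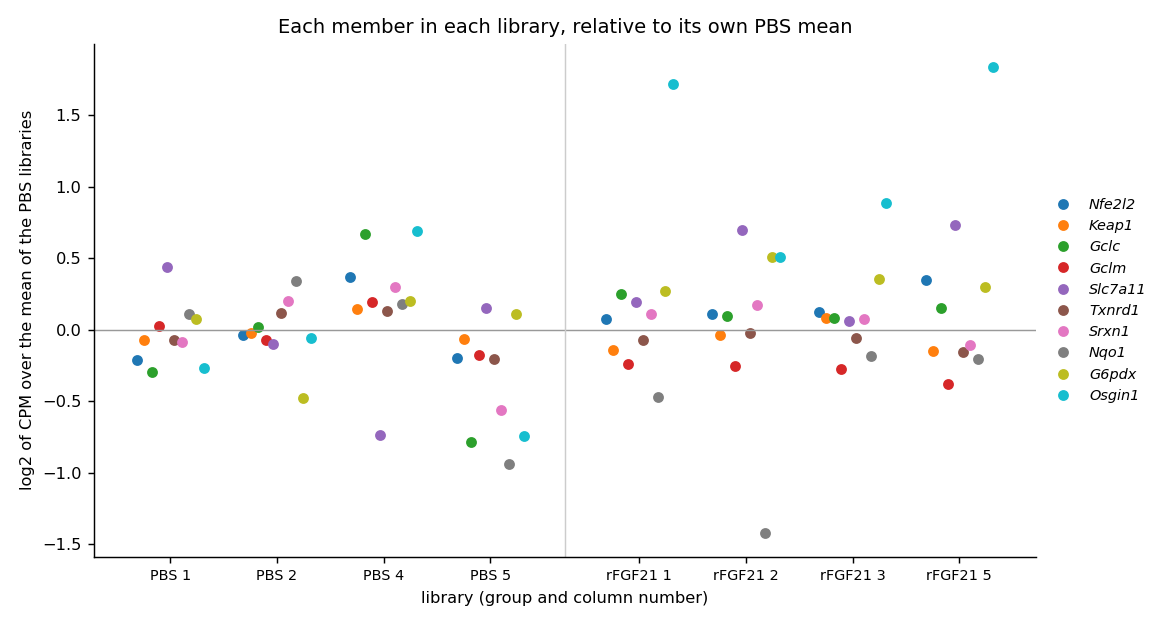
Log2 of the CPM of each member over its own mean in the PBS libraries (vertical axis) for the 8 libraries (horizontal axis), with a colour for each gene. In PBS library 4 all members but Slc7a11 lie above 0, in PBS library 5 Gclc, Nqo1, Osgin1 and Srxn1 lie lowest, and Osgin1 stands highest in rFGF21 libraries 1, 3 and 5.

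Levels of different genes can be set side by side only per length, here as CPM per kilobase of exon in GENCODE. In PBS the order of the mean level per kilobase was Gclc (54.9 ± 23.7), Osgin1 (53.6 ± 23.4), Srxn1 (45.9 ± 11.3), Nfe2l2 (33.4 ± 6.65), Gclm (27.9 ± 3.08), Txnrd1 (26.5 ± 2.88), Keap1 (12.5 ± 0.906), Nqo1 (7.97 ± 2.62), G6pdx (3.01 ± 0.576) and Slc7a11 (0.0593 ± 0.0189; SD, n = 4). Neighbours in that order overlapped in their range of libraries from Gclc down to Txnrd1, and from Txnrd1 on each was apart from the next. After rFGF21 Osgin1 stood first at 136 ± 56.5 CPM per kilobase and apart from Gclc at 60.8 ± 3.20 CPM per kilobase. Among the rFGF21 libraries all neighbours were apart except Nqo1 (5.66 ± 1.88 CPM per kilobase) and G6pdx (3.87 ± 0.299 CPM per kilobase).

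Among 19 genes for regulators and partners of NRF2, 2 rose and 0 fell, where 1.15% and 1.67% of all genes tested were called higher and lower. Bach2 encodes a repressor that competes for the same kind of element with small MAF partners. It was read at 5.44, 3.88, 3.75 and 4.72 CPM in PBS libraries 1, 2, 4 and 5 and at 11.1, 6.83, 7.91 and 9.27 CPM in rFGF21 libraries 1, 2, 3 and 5, with no overlap (log2 fold change 0.98 ± 0.19, edgeR adjusted p = 0.0252). Maff, a small MAF gene, was read at 8.99, 8.87, 6.11 and 10.1 CPM in PBS and 17.5, 19.2, 12.0 and 13.9 CPM after rFGF21 (0.88 ± 0.19, edgeR adjusted p = 0.0370). Neither call held in every fit that left out 1 library. In those fits the log2 fold change stayed between 0.85 and 1.10 for Bach2 and between 0.75 and 0.98 for Maff. With 1 library left out, edgeR no longer called Bach2 when that library was PBS 2 (adjusted p = 0.062), PBS 5 (0.0579), rFGF21 1 (0.0865) or rFGF21 5 (0.0732). It no longer called Maff when that library was PBS 1 (adjusted p = 0.0821), PBS 2 (0.0718), PBS 5 (0.0522), rFGF21 1 (0.113), rFGF21 2 (0.0869) or rFGF21 5 (0.0722).

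The other partners did not pass. The small MAF genes Mafg (log2 fold change 0.13 ± 0.09) and Mafk (-0.04 ± 0.10), the repressor gene Bach1 (0.11 ± 0.13) and Cul3, the scaffold of the ligase that KEAP1 serves (0.05 ± 0.07), had edgeR adjusted p between 0.474 and 0.888, and the sign of Mafk turned with library totals alone (0.042). Sqstm1, whose product p62 draws KEAP1 into autophagy, stood at 439 ± 28.8 and 504 ± 28.4 CPM (SD, n = 4 each) with no overlap (0.20 ± 0.09, edgeR adjusted p = 0.281). Btrc, a part of the second ligase that can mark NRF2 (-0.40 ± 0.11), and Rxra (-0.25 ± 0.10) were lower without passing (edgeR adjusted p = 0.0972 and 0.199). The median of the 19 was 0.10, beside 0.0034 for all genes tested (0.04 without PBS library 4 and 0.06 without rFGF21 library 2). With library totals alone it was 0.18, beside 0.087 for all genes tested.

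Genes that spend or recycle glutathione had 0 of 30 members called by edgeR, 9 at an unadjusted p under 0.05, all of them lower, and 6 lower with DESeq2. Over all genes tested 1.67% were called lower by edgeR and 9.86% were lower at an unadjusted p under 0.05. Of the genes with a DESeq2 adjusted p, 5.21% were called lower with DESeq2. The median log2 fold change of the glutathione list was -0.27 (-0.16 without PBS library 1), and 25 of the 30 were below 0. Beside this and the lists that follow, 5 of 6 hepatocyte markers had log2 fold changes below 0 (median -0.14) and all 6 cholangiocyte markers above 0 (median 0.62), and their part in the lists' values was not tested. The 4 with the smallest p were Chac2, a glutathione-degrading enzyme (-0.45 ± 0.11, edgeR adjusted p = 0.0626), the microsomal transferase Mgst1 (-0.35 ± 0.09, 0.0765), Gsta3 (-0.57 ± 0.16, 0.0859) and Gstm4 (-0.45 ± 0.13, 0.0994). Some Gsta and Gstm genes are similar copies whose reads the counting could have split, so values in these families are uncertain. Gsr, glutathione reductase, and Gss, glutathione synthetase, which follows the ligase, stood at 67.6 ± 6.34 and 151 ± 25.2 CPM in PBS and at 69.9 ± 11.2 and 148 ± 11.9 CPM after rFGF21 (SD, n = 4 each).

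The thioredoxin and peroxiredoxin list had 0 of 16 members called by edgeR, 5 lower at an unadjusted p under 0.05, and 4 lower with DESeq2. The shares of genes for these calls were 1.67%, 9.86% and 5.21%, the last among genes with a DESeq2 adjusted p. Msra (-0.35 ± 0.08, edgeR adjusted p = 0.0525) and Msrb1 (-0.40 ± 0.10, 0.0706), which repair oxidised methionine, Prdx6, a peroxiredoxin (-0.38 ± 0.11, 0.0876), and the selenoprotein gene Selenow (-0.30 ± 0.09, 0.0979) had the smallest p. Txn1, thioredoxin itself, stood at 175 ± 43.6 and 182 ± 18.9 CPM (SD, n = 4 each). Of 12 genes of NADPH supply 0 were called by edgeR and 3 were lower at an unadjusted p under 0.05 (9.86% of all genes). DESeq2 called 1 lower, near its share of 5.21% of the genes with a DESeq2 adjusted p. The genes at an unadjusted p under 0.05 were Idh1, cytosolic isocitrate dehydrogenase (-0.38 ± 0.09, edgeR adjusted p = 0.0593), Nnt (-0.25 ± 0.09) and malic enzyme Me1 (-0.26 ± 0.11), with Idh2 next (-0.25 ± 0.12, 0.295), while Pgd, the pentose phosphate enzyme after G6PDX, had a log2 fold change of 0.09 ± 0.14.

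All 4 genes for removal of superoxide and hydrogen peroxide were lower at an unadjusted p under 0.05, where 9.86% of all genes were. Of the 4, edgeR called 0 and DESeq2 called 2 lower, where 5.21% of the genes with a DESeq2 adjusted p were called lower. Catalase, Cat, was read at 1808 ± 468 and 1242 ± 81.7 CPM (SD, n = 4 each, log2 fold change -0.54 ± 0.16, edgeR adjusted p = 0.105). PBS library 4 stood at 2506 CPM, and PBS libraries 1, 2 and 5 at 1555, 1645 and 1528 CPM. With a library left out the log2 fold change of Cat ranged from -0.61 to -0.34. Sod1 stood at 439 ± 32.9 and 338 ± 15.4 CPM (-0.38 ± 0.09, 0.0614), Sod3 at -0.33 ± 0.10 and Sod2 at -0.27 ± 0.09 on the log2 fold change scale. The medians of these lists were -0.15 for thioredoxin, -0.13 for NADPH supply and -0.35 for superoxide and peroxide removal. The medians of all 3 lists and of the glutathione list were below 0 in the 17 alternative fits as well, but their size moved. The thioredoxin median was -0.07 with library totals alone (9 of 16 below 0), -0.08 without PBS library 1, -0.10 without PBS library 5 and -0.25 without PBS library 4. The NADPH median was -0.05 with library totals alone and -0.09 without rFGF21 library 2. With library totals alone the median of all genes tested was itself higher, at 0.087 against 0.0034 in the main fit.

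Of 31 other genes described as NRF2 targets edgeR called 1 lower and 0 higher, where it called 1.67% and 1.15% of all genes tested. The edgeR count is near that share. At an unadjusted p under 0.05, 8 were lower and 1 was higher, where 9.86% and 8.92% of all genes tested were. DESeq2 called 3 lower and 1 higher, where it called 5.21% and 4.45% of the genes with a DESeq2 adjusted p. Cyp2a5, a P450 of coumarin metabolism, was read at 985, 849, 1763 and 751 CPM in PBS libraries 1, 2, 4 and 5 and at 475, 379.7, 608 and 361 CPM in rFGF21 libraries 1, 2, 3 and 5. The groups did not overlap, and PBS library 4 stood highest as it did for most members (log2 fold change -1.25 ± 0.27, edgeR adjusted p = 0.0370). With 1 library left out, edgeR no longer called Cyp2a5 when that library was PBS 1 (adjusted p = 0.0767), rFGF21 1 (0.105), rFGF21 2 (0.0953) or rFGF21 5 (0.106). Cyp2a5 belongs to a family of similar copies, so its count is uncertain. Hmox1, heme oxygenase, a target shared with other stress pathways, stood at 34.5 ± 5.46 and 37.1 ± 4.30 CPM (SD, n = 4 each, edgeR adjusted p = 0.712). Akr7a5 (-0.41 ± 0.10, edgeR adjusted p = 0.0549) and Blvrb, biliverdin reductase B (-0.41 ± 0.12, 0.106), did not pass. The list median was -0.15 with 23 of 31 below 0. With library totals alone it was -0.07 with 21 of 31 below 0, beside a median of 0.087 for all genes tested.

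Slc7a11, Chac1 and Trib3 are also targets of ATF4, the factor of the integrated stress response. Of 17 tested genes of that list 0 were called by edgeR, and 4 were higher and 1 lower at an unadjusted p under 0.05. Of all genes tested 8.92% were higher and 9.86% lower at that p. DESeq2 called 2 of the 17 higher, where 4.45% of the genes with a DESeq2 adjusted p were called higher. The list median was 0.12, and it ranged from 0.03 without rFGF21 library 2 to 0.26 without rFGF21 library 3, with 0.20 without PBS library 1 and 0.22 without PBS library 2. Trib3, a pseudokinase gene (0.79 ± 0.23, edgeR adjusted p = 0.0994), Atf3 (0.60 ± 0.18, 0.113), asparagine synthetase Asns (1.91 ± 0.59, 0.117) and Cbs (-0.26 ± 0.10, 0.184) had the smallest p. Asns was high in rFGF21 libraries 1 (12.4 CPM) and 5 (7.59 CPM), while libraries 2 (1.99 CPM) and 3 (1.59 CPM) lay within the PBS range of 1.02 to 2.18 CPM, and without rFGF21 library 1 its log2 fold change was 1.25. Atf4 itself stood at 79.1 ± 10.9 and 72.4 ± 3.10 CPM (SD, n = 4 each, edgeR adjusted p = 0.559).

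**Figure D5:**
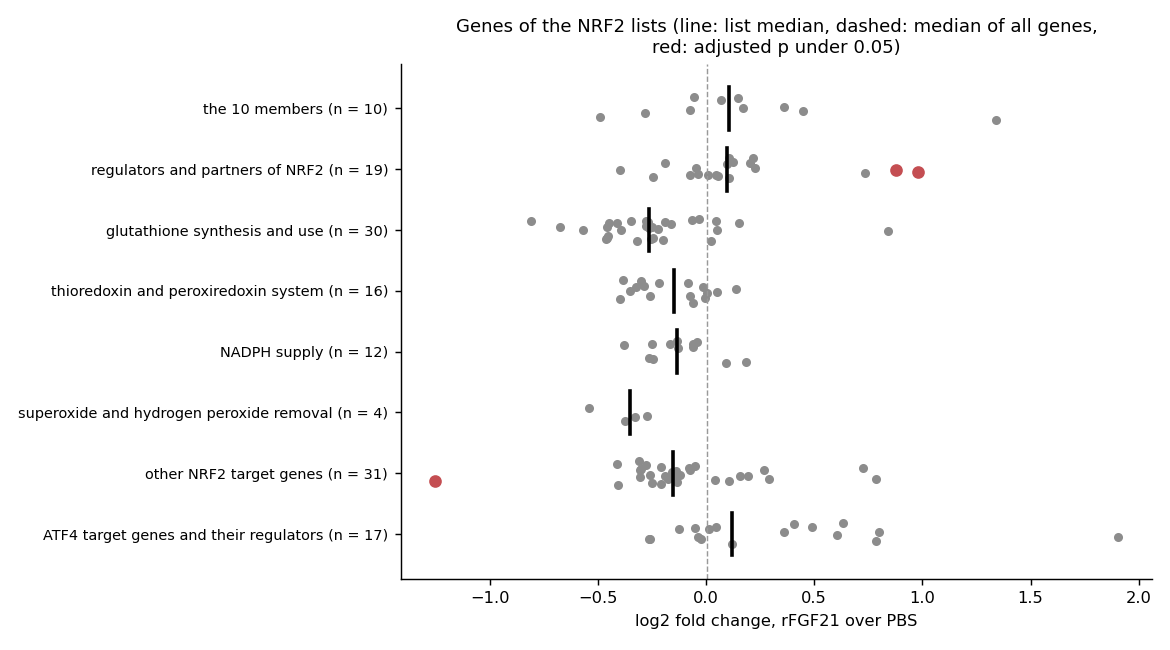
Log2 fold change of rFGF21 over PBS (horizontal axis) for every tested gene of the 10 members and of 7 related lists, with the list median as a line and the median of all genes tested as a dashed line. Bach2, Maff and Cyp2a5 are the 3 genes that passed, and the medians of the glutathione, thioredoxin, NADPH, superoxide and other target lists lie between -0.35 and -0.13.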

How the data were processed

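Whole-liver RNA was sequenced from 8 samples. The deposited table gives whole-number read counts per gene, per the file headers. For 4 samples in a group it holds 5 count columns; the 8 whose library has FPKM values too were analysed. Column numbers differ from sample numbers, so columns were assigned to groups only and 1 measure was kept: 10 columns (2 of counts and 8 of FPKM) were not used here. Bowtie 0.12.2 and build mm8 are named in the submitters' processing notes, yet 27322 of 30177 gene identifiers found in GENCODE mouse release 21 (GRCm38) had identical coordinates there. No source used here names the counting tool or its strand setting. Counts were filtered with filterByExpr, scaled by TMM and tested without covariates by the quasi-likelihood F test of edgeR 4.0.16 (R 4.3.3, glmQLFit and glmQLFTest, two-sided, Benjamini-Hochberg over 18315 genes); DESeq2 1.42.0 and limma 3.58.1 (on voom weights) were alternatives, with other scalings and filters, each library left out in turn and a block. SE of log2 fold changes follow from the F statistic, and 95% intervals from its degrees of freedom. The 2 ratios were tested by exact permutation.

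The fitting was tested on simulated data. For each size of change 50 genes were set to differ, drawn from all 18315 whatever their level. There it called 14% of the genes set to differ 1.5-fold and 38% of those set to differ 2-fold. Many true changes of that size thus went uncalled in that setting. It made 109 calls, against 516 in the data, so these shares need not be those of the 10 members. The limit given for 0 reads covers counting error only, while the 95% intervals rest on the spread between libraries. The members and lists were chosen with earlier results of these data known. Named genes are all 10 members, every called gene of the 7 lists, the 4 smallest p of each list and 13 fixed genes; genes overlapping Gclm and G6pdx were added after their values were seen. The markers of 9 cell types are given as summed levels: beyond those in the report, the summed ranges in PBS and rFGF21 libraries were 11.4 to 18.4 and 13.2 to 26.1 CPM for neutrophil, 185 to 261 and 245 to 330 CPM for stellate cell, 85.1 to 175 and 79.5 to 150 CPM for endothelial, 4.63 to 5.49 and 4.82 to 6.12 CPM for lymphocyte and 303 to 415 and 412 to 756 CPM for erythroid markers, with 0 markers called in any list.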

Additional observations from a re-analysis of the deposited data

Results flagged for a closer look

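The level of Nfe2l2 in rFGF21 library 5, 161 CPM, stood apart from the other 3 rFGF21 libraries (134 to 138 CPM). Its gap to the nearest of them was 0.83 of the range of the group, just above the 95% limit of Dixon's test. Chance flags about 5% of groups, and 24 groups of 4 libraries were checked. Without that library the log2 fold change of Nfe2l2 was 0.11 (edgeR adjusted p = 0.804).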

How the results depend on the processing

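Of the 10 members, Nfe2l2, Nqo1, Gclm, Slc7a11, G6pdx and Osgin1 kept their direction in every alternative that could be fitted (17, and 16 for Slc7a11, which was too low for the 1 CPM filter). The count of members called higher was 1 (Osgin1) with DESeq2 and in the 6 libraries numbered 1, 2 and 5 fitted without a block, and 0 to 1 with a library left out. Against 210 genes higher and 306 lower, there were 85 and 113 with no count filter, 703 and 824 with DESeq2, 257 and 178 with library totals alone, and 51 to 198 and 80 to 288 with a library left out, lowest without rFGF21 library 1. Same-numbered columns correlated in their deviations at 0.14, -0.13 and -0.21, against -0.12 to 0.26 for columns of different number. Not every library correlated best with its own number. This gave no sign that the numbers pair the libraries, but so few pairs cannot exclude it. The replicate block over these numbers left 7 genes higher and 5 lower, against 116 and 165 in the same 6 libraries without it (chosen after seeing the data). Of the regulators, 2 of which rose, the count was 0 with no count filter and under the block, 1 in the 6 libraries, and 0 to 2 with a library left out. Of other NRF2 targets, 1 of which fell, the count was 0 with no count filter and under the block, 2 with the 1 CPM filter, 3 with DESeq2 and 0 to 2 with a library left out. With DESeq2 there were also 1 regulator, 6 glutathione, 4 thioredoxin, 1 NADPH and 2 superoxide genes lower, and 1 other target and 2 ATF4 genes higher. With limma-voom 1 thioredoxin, 1 NADPH and 1 superoxide gene were lower, with the 1 CPM filter 1 thioredoxin and 1 NADPH gene, and in the 6 libraries 1 thioredoxin gene. With a library left out, the counts were 0 to 1 for glutathione and thioredoxin genes lower and for other targets and ATF4 genes higher, and 0 for the remaining lists. Signs turned with library totals alone, where the median of all genes tested was 0.087, for Keap1 (0.027), Txnrd1 (0.0059), Mafk (0.042) and Gss (0.051). They turned without PBS library 5 for Gclc (-0.033), Srxn1 (-0.073), Gsr (-0.0035) and Pgd (-0.0076), without PBS library 4 for Gss (0.059) and Txn1 (-0.11), and without PBS library 2 for Mafk (0.044). They also turned without rFGF21 library 2 for Gsr (-0.0062), library 3 for Gsr (-0.014) and Txn1 (-0.0077) and library 5 for Gss (0.019), under the block for Gss (0.065) and Txn1 (-0.17), and in the same 6 libraries for Gss (0.058) and Txn1 (-0.17). With a library left out, the log2 fold change ranged from -0.033 to 0.466 for Gclc, -0.073 to 0.183 for Srxn1, -0.095 to 0.044 for Mafk, -0.014 to 0.144 for Gsr, -0.127 to 0.059 for Gss, -0.107 to 0.172 for Txn1 and -0.0076 to 0.244 for Pgd. The cause was not tested. Fits on the authors' FPKM values were not run, because columns known by group only allow 1 measure. Both ratios kept their direction with a library left out (-0.71 to -0.35 for Gclm to Gclc, 0.15 to 0.32 for Nfe2l2 to Keap1). Among the members depth is low for Slc7a11, with 29 to 104 reads in a library.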
